A study of Mus musculus with 6 samples.

Results

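MHC class I molecules display peptides from inside the cell on its surface. Each consists of a heavy chain and a shared light chain, beta 2-microglobulin, which is encoded by B2m. In C57BL/6 mice the classical heavy chains H2-K1 and H2-D1 present peptides to CD8 T cells and engage inhibitory receptors of NK cells, while the nonclassical chains of the Q, T and M regions have narrower roles. Class I transcription is raised by interferon through IRF factors and the transactivator NLRC5, and by NF-kB. The 10 genes described here are the heavy chains H2-K1, H2-D1, H2-Q4, H2-Q6, H2-Q7, H2-T22, H2-T23, H2-T24 and H2-M3, and B2m. They are 10 of the 56750 rows of the deposited table and were taken by Ensembl ID from a list of names. The genes were chosen by their TPM values in these same DIC and control libraries, so the differences between the groups are given for these genes as a description, and no test of them is read as a result.

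The libraries came from LSK cells sorted from the bone marrow of C57BL/6 mice. LSK stands for no lineage markers with Sca1 and cKit present, a gate that covers blood stem cells and early progenitors. The DIC group had colitis induced by dextran sulfate sodium (DSS), a chemical that injures the colon lining, given at 2.5% for 5 days. The reference mice are labelled control, with no other treatment named. Each group had 3 libraries, and the labels give 3 mice per group but no age or sex. They are called DIC 1, 2 and 3 and control 1, 2 and 4 after the table's column names. The labels tie control 2 to 1 sample, and the other control columns to the group only. Nothing further describes the replication, so spreads and p-values measure the variation between these libraries, which may be technical.

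Values are TPM, the deposited abundance unit, which is scaled for transcript length, so levels can be compared between genes. Between 20474 and 22720 rows were above 0 per library, and sequencing depth is unknown. Kit, the receptor used in the sort, measured 82.3 to 95.2 TPM in DIC and 54.2 to 99.5 TPM in control, and Ly6a, which encodes Sca1, 15.5 to 23.8 TPM in DIC and 19.7 to 49.9 TPM in control. A list of 16 neutrophil genes made up 22.6%, 15.5% and 19.0% of all TPM in DIC 1, 2 and 3, against 4.22%, 12.6% and 3.03% in control 1, 2 and 4. Control 2 therefore stood near the DIC libraries in its neutrophil share.

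The promoters of most of these genes share a short stretch, shown here because it holds the sequence motifs named for the factors that raise class I transcription. Sequences are from RefSeq with the build GRCm38.p6, 5′ to 3′ on the strand of the gene. Of the 10 genes, 9 had a promoter window of 250 bases before to 50 bases after the transcript start, and H2-T24 had none in the table. H2-K1 had more than 1 window, and the first was used. Capitals mark matches to an interferon-response type motif, GAANNGAAA or a longer form, GAAA and GAAA with any 2 bases between them, on either strand, and to the NF-kB consensus. Each stretch is 75 bases long.
H2-K1, chr17:34000398-34000472, minus strand: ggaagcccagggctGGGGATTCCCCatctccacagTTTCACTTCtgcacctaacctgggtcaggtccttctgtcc
H2-D1, chr17:35262909-35262983, plus strand: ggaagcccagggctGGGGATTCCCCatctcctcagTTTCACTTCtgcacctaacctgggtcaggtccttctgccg
H2-Q4, chr17:35379429-35379503, plus strand: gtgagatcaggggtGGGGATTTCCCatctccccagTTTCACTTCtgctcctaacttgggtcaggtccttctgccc
H2-Q6, chr17:35424663-35424737, plus strand: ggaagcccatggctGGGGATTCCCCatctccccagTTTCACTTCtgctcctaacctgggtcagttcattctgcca
H2-Q7, chr17:35439007-35439081, plus strand: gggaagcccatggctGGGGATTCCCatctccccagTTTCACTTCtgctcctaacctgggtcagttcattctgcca
H2-T22, chr17:36042894-36042968, minus strand: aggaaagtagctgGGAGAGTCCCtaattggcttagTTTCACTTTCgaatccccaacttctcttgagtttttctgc
H2-T23, chr17:36032786-36032860, minus strand: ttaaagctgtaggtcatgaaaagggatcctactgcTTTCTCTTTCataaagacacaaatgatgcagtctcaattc
H2-M3, chr17:37270098-37270172, plus strand: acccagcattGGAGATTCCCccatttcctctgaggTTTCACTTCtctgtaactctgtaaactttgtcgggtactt
B2m, chr2:122147528-122147602, plus strand: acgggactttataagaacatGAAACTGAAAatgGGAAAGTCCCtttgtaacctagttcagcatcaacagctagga

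The shorter motif, GAANNGAAA, was found in 6 of the 9 windows (H2-K1, H2-D1, H2-Q4, H2-Q6, H2-Q7 and H2-M3), against 7.52% of all 32851 promoter windows. The longer form was found in the other 3 windows (H2-T22, H2-T23 and B2m), against 3.44% of all windows. The NF-kB consensus was found in 8 of the 9 windows, all but that of H2-T23, against 4.51% of all windows; in H2-K1, H2-D1, H2-Q4 and H2-Q6 it matched at overlapping positions. H2-Q10, a class I gene outside the 10, also held the shorter motif, at -155 to -147 from its start, and no NF-kB match. The shorter motif was thus not particular to the 10 genes. Several of the stretches are near copies of each other, so the 9 windows are not independent. The motifs were chosen after the expression values had been seen, and a match describes letters in a window, not binding.

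**Figure D1:**
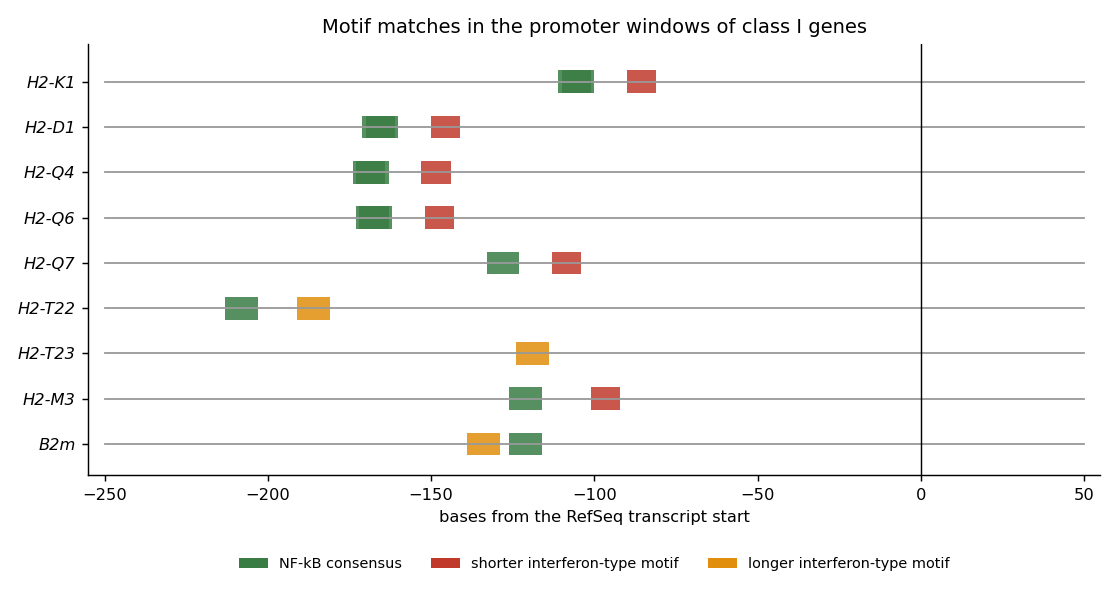
Positions of motif matches in the promoter windows of 9 class I genes, in bases from the RefSeq transcript start (x axis); each row is 1 gene and each block 1 match. All 9 windows hold an interferon-response type match upstream of the start, and 8 hold an NF-kB consensus match.

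Among the 10 genes, 9 were lower in DIC with no overlap between the groups, and H2-T24 alone had a higher mean in DIC, with overlapping values. Across all 13496 genes tested, 18.4% were lower in DIC without overlap and 7.08% higher. A gene was tested if 3 or more of the 6 libraries reached 1 TPM, and all 10 class I genes were among those tested. Differences are given on the log2(TPM + 1) scale as DIC minus control, with the moderated standard error (SE) of limma. Their median over the 10 genes was -0.88, and over all tested genes -0.08. H2-Q6 and H2-Q7 were past an adjusted p of 0.05 (limma, Benjamini-Hochberg), both lower in DIC. Of all tested genes, 3 were past it and lower in DIC (0.0222%), with H2-Q6 and H2-Q7 among those 3. Another 5 were past it and higher in DIC (0.037%), which gives 8 in either direction (0.0593%). Since this contrast was used to choose the genes, nothing is read from the count. Neither gene was past it without the low-value filter, with a neutrophil covariate, without DIC 1, without control 4, or without DIC 3 when the filter was reapplied to the remaining libraries, and H2-Q7 was not after quantile normalization. Without control 2, 6 of the 10 were past it and lower, in a fit where 12.4% of all tested genes were past it, 8.45% lower in DIC.

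The classical chains were the most abundant heavy chains. H2-K1 measured 881, 989 and 937 TPM in DIC 1, 2 and 3, against 1696, 1791 and 1976 TPM in control 1, 2 and 4. Every DIC library was below every control library, by a log2 difference of -0.96 ± 0.14 (SE). H2-D1 measured 1138, 998 and 1047 TPM in DIC, against 1625, 1554 and 1611 TPM in control, a log2 difference of -0.59 ± 0.14, which was -0.35 after quantile normalization and -0.39 with the neutrophil genes removed and TPM rescaled. The groups did not overlap for this chain either, and the controls lay within 1.05-fold of each other. The order of the chains differed between the groups. H2-K1 was at 0.774, 0.991 and 0.895 of the H2-D1 level in DIC, against 1.04, 1.15 and 1.23 in control, so H2-D1 was the higher chain in 3 of 3 DIC libraries and H2-K1 in 3 of 3 controls.

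The Q-region chains H2-Q6 and H2-Q7, which encode Qa-2 antigens, were the furthest apart between the groups. H2-Q6 measured 38.2, 45.6 and 47.3 TPM in DIC, against 151, 178 and 206 TPM in control, a log2 difference of -2.0 ± 0.16. H2-Q7 measured 56.3, 63.7 and 71.0 TPM in DIC, against 205, 267 and 252 TPM in control, a log2 difference of -1.90 ± 0.15. For both genes the highest DIC library was below the lowest control by a wide gap. H2-Q4, another Q-region chain, was near the filter, with 2.13, 1.85 and 2.49 TPM in DIC and 3.57, 4.16 and 6.02 TPM in control, a log2 difference of -0.80 ± 0.23. Its groups did not overlap, at levels where the added 1 TPM shrinks a log2 difference.

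The T-region chains differed among themselves. H2-T22, whose product is a ligand of a subset of gamma delta T cells, measured 12.6, 12.7 and 13.1 TPM in DIC, against 28.1, 27.4 and 31.4 TPM in control, a log2 difference of -1.12 ± 0.13. The DIC libraries were within 1.04-fold of each other. H2-T23 encodes Qa-1, which presents leader peptides of other class I chains to the NKG2A receptor, and measured 124, 111 and 123 TPM in DIC, against 138, 180 and 186 TPM in control. The groups did not overlap, but control 1 came close to DIC 1, and the log2 difference was -0.48 ± 0.15. It was -0.29 after quantile normalization and -0.28 with the neutrophil genes removed. H2-T24 measured 13.3, 6.85 and 11.04 TPM in DIC, against 3.88, 5.19 and 8.45 TPM in control, a log2 difference of 0.75 ± 0.32. DIC 2 was below control 4, so the groups overlapped.

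H2-M3 encodes a chain that presents N-formylated peptides, such as those of bacteria and mitochondria. It measured 15.3, 20.2 and 13.8 TPM in DIC, against 42.4, 27.1 and 39.95 TPM in control, a log2 difference of -1.09 ± 0.22, which was -0.43 with the neutrophil covariate. The groups did not overlap, and DIC 2 and control 2 were the nearest to each other. B2m measured 3878, 3155 and 3990 TPM in DIC, against 4976, 4878 and 6450 TPM in control, a log2 difference of -0.56 ± 0.21, which was -0.35 with the neutrophil genes removed. It was the most abundant of the 10 transcripts in every library.

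**Figure D2:**
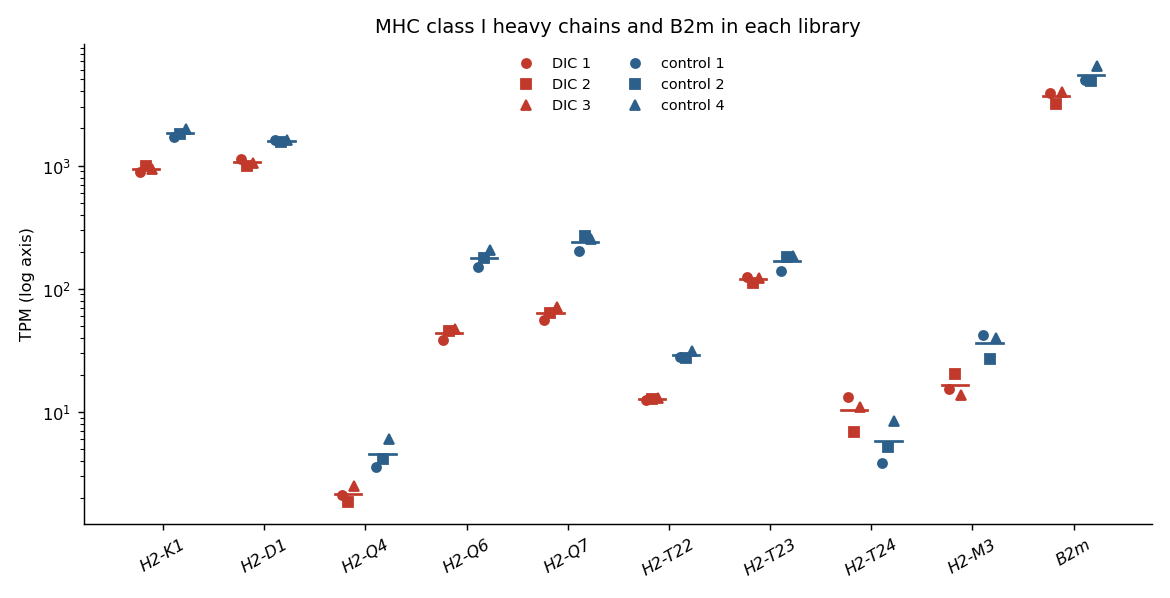
TPM (y axis, log scale) of the 9 class I heavy chains and B2m in the 3 DIC libraries (red, left) and the 3 control libraries (blue, right); symbols are libraries and lines are group means. H2-Q6 and H2-Q7 show the widest gap between the groups, and H2-T24 is the gene whose groups overlap.

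Ordered by mean level, the DIC libraries ran B2m, H2-D1, H2-K1, H2-T23, H2-Q7, H2-Q6, H2-M3, H2-T22, H2-T24 and H2-Q4. Of neighbours in that order, only H2-T22 and H2-T24 had overlapping ranges. In control the order was B2m, H2-K1, H2-D1, H2-Q7, H2-Q6, H2-T23, H2-M3, H2-T22, H2-T24 and H2-Q4. There, H2-Q7 and H2-Q6, H2-Q6 and H2-T23, H2-M3 and H2-T22, and H2-T24 and H2-Q4 overlapped. H2-T23 was above H2-Q6 and H2-Q7 in mean level in DIC and below both in control.

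Summed over the 9 heavy chains, the level was 2281, 2248 and 2265 TPM in DIC, against 3893, 4034 and 4317 TPM in control, a ratio of 0.555. The summed classical chains had a ratio of 0.584, at 1996 ± 19.5 TPM in DIC and 3418 ± 147 TPM in control (SD, n = 3 each). The summed nonclassical chains had a ratio of 0.405, at 268 ± 11.2 TPM in DIC and 663 ± 82.3 TPM in control. The classical chains made up 88.5%, 88.4% and 87.6% of heavy-chain TPM in DIC, against 85.3%, 82.9% and 83.1% in control. The shares did not overlap, and within the nonclassical chains the regions went different ways: the Q region held 4.84% ± 0.56 in DIC and 10.36% ± 1.01 in control, and the T region 6.29% ± 0.43 in DIC and 4.96% ± 0.51 in control. The share of H2-M3 overlapped between the groups. These shares are ratios within a library, and show unequal differences of the chains, not which of them moved.

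B2m per heavy chain was 1.70, 1.40 and 1.76 in DIC, against 1.28, 1.21 and 1.49 in control. DIC 2 lay below control 4, so the groups overlapped. H2-Q6 and H2-Q7 together were at 10.7, 11.05 and 12.6 TPM per 100 TPM of H2-K1 in DIC, against 20.9, 24.8 and 23.2 in control. Set against H2-T23, the same sum was 75.9, 98.5 and 96.4 TPM per 100 TPM in DIC, against 257, 246.5 and 246.0 in control. By either chain the Qa-2 transcripts took a smaller place in every DIC library than in any control.

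**Figure D3:**
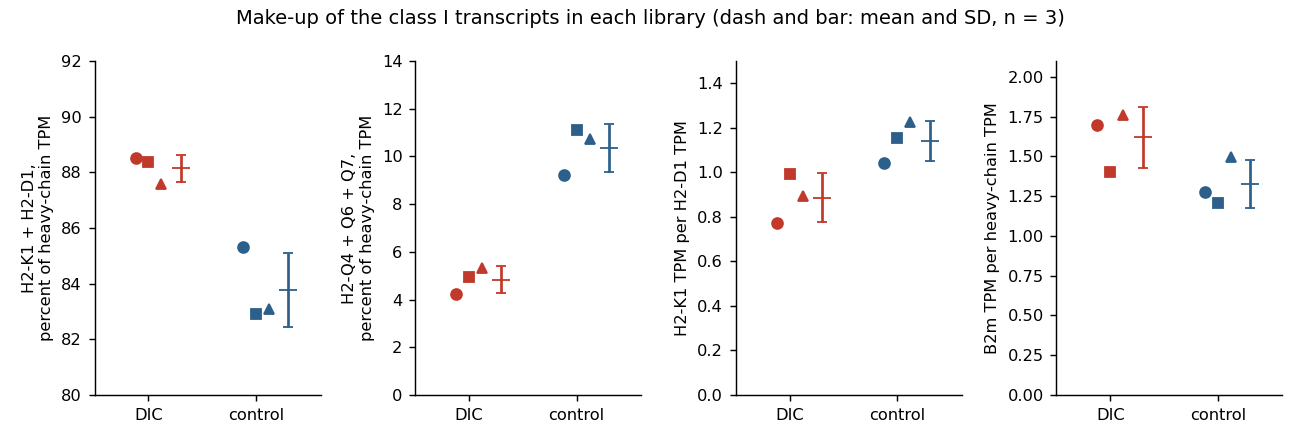
Make-up of the class I transcripts in each library, with 3 DIC libraries (red, left) and 3 control libraries (blue, right) and the mean and SD beside them; the axis of the first panel starts at 80%. The classical share, the Q-region share and the ratio of H2-K1 to H2-D1 separate the groups, and B2m per heavy chain overlaps.

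Several of these genes are near-identical copies, and the authors' counting could split reads between them. In GENCODE transcripts on GRCm38, the coding sequences of H2-Q6 and H2-Q7 were 95.4% identical, with an identical run of 265 bases. H2-Q7 was 96.6% identical to H2-Q5, and H2-T22 was 96.3% identical to H2-T10. Of the 150-base windows of the transcript, the read length of the libraries, 11.6% of those of H2-Q7 and 5.99% of those of H2-Q6 were also present in another gene's transcript. For H2-D1 that share was 1.79%, for H2-T22 0.93% and for H2-T23 0.83%, and it was 0 for H2-K1, H2-Q4, H2-T24, H2-M3 and B2m. With 50-base windows the share reached 40.2% for H2-Q7, 44.7% for H2-T22 and 32.0% for H2-Q6, and stayed 0 for B2m. The separate levels of H2-Q6 and H2-Q7 are therefore uncertain. Their sum was 94.5, 109 and 118 TPM in DIC, against 355, 445 and 458 TPM in control. This sum is not free of read sharing. TPM is scaled for transcript length, and the transcripts compared were 2085 bases long for H2-Q6 and 1497 for H2-Q7. A read moved between the pair thus changes the sum, and H2-Q7 also shares 150-base windows with H2-Q5. The ratio of H2-Q6 to H2-Q7 overlapped between the groups, at 0.678, 0.716 and 0.665 in DIC and 0.736, 0.667 and 0.819 in control.

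Other class I genes were followed from a list of 35 names, of which 23 had a row and 6 passed the filter. This list, and the pathway and marker lists below, were chosen with earlier results of these data known. Their counts beside the background are therefore a description, not a test of the lists. With limma and Benjamini-Hochberg adjustment, 0 of the 6 were called, 3 were lower at an unadjusted p under 0.05, against 13.8% of all tested genes, and the median log2 difference was -0.45. H2-Q5, the near copy of H2-Q7, which the annotation lists as a polymorphic pseudogene, measured 16.7, 19.5 and 36.5 TPM in DIC, against 60.5, 133 and 272 TPM in control. The groups did not overlap, the controls differed among themselves more than 4-fold, and the log2 difference was -2.46 ± 0.54 (limma adjusted p = 0.212). Adding H2-Q5 to H2-Q6 and H2-Q7 gave 131.5 ± 21.9 TPM in DIC and 575 ± 157 TPM in control (SD, n = 3 each). H2-T10, the near copy of H2-T22, measured 2.01, 2.91 and 2.52 TPM in DIC, against 5.78, 5.50 and 8.51 TPM in control (log2 difference -1.11, limma adjusted p = 0.212). Its sum with H2-T22 was 15.3 ± 0.57 TPM in DIC and 35.6 ± 3.8 TPM in control. H2-K2 had a log2 difference of -0.62 (limma adjusted p = 0.233), without overlap. H2-Q1, H2-Q10 and H2-T-ps overlapped between the groups, with log2 differences of -0.28, 0.18 and -0.11. The other 12 names, H2-Q8 and H2-Q9 among them, had no row under those names and were not analysed here. Whether reads of those genes were counted in other rows, such as those of H2-Q6 and H2-Q7, was not tested.

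Peptides for class I are cut by the immunoproteasome, carried into the endoplasmic reticulum by the TAP transporter and loaded with the help of chaperones. All 13 genes of that list were tested and 0 were called by limma, while 9 were lower at an unadjusted p under 0.05 and 0 higher; the background was 13.8% lower and 6.43% higher. Their median log2 difference was -0.57. As this list was also chosen with earlier results known, nothing is read from the count. Tap1, a subunit of the transporter, measured 41.7, 42.5 and 41.0 TPM in DIC, against 71.6, 66.3 and 72.7 TPM in control (log2 difference -0.74 ± 0.11, limma adjusted p = 0.201). Tap2, its partner subunit, overlapped, at 44.2 ± 3.12 TPM in DIC and 46.8 ± 3.96 TPM in control (log2 difference -0.08, limma adjusted p = 0.746). The immunoproteasome subunits Psmb8 and Psmb9 had log2 differences of -0.98 ± 0.20 and -0.79 ± 0.13 (both limma adjusted p = 0.212), without overlap. Psmb8 measured 279, 376 and 348 TPM in DIC, against 742, 506 and 752 TPM in control 1, 2 and 4. Psmb9 measured 106, 114 and 112 TPM in DIC, against 206, 162 and 209 TPM in control. For both subunits control 2 was the control nearest to DIC. The chaperone Calr had a log2 difference of -0.57 ± 0.21 (limma adjusted p = 0.22), with control 2 at 1077 TPM close to DIC 2 at 1046 TPM. Tapasin, Tapbp, had -0.03 ± 0.11 (limma adjusted p = 0.915). The genes of the loading list thus spanned log2 differences of -0.98 to 0.05.

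Among 23 regulators, all tested, 0 were called by limma and 5 were lower at an unadjusted p under 0.05, against 13.8% of all tested genes, with a median log2 difference of -0.17. Nlrc5, the class I transactivator, measured 6.76, 8.27 and 8.45 TPM in DIC, against 10.31, 12.7 and 18.8 TPM in control (log2 difference -0.73 ± 0.23, limma adjusted p = 0.212). Irf1, an interferon-induced factor, measured 40.4, 37.7 and 41.7 TPM in DIC, against 73.7, 50.7 and 136 TPM in control (log2 difference -0.98 ± 0.33, limma adjusted p = 0.2125). Both separated the groups, with controls that differed among themselves. Nfkb1, an NF-kB subunit, had a log2 difference of -0.34 ± 0.11 (limma adjusted p = 0.212).

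Of 13 class I-like genes 6 were tested, 0 were called by limma and 2 were lower at an unadjusted p under 0.05, against the same 13.8%. Cd1d1, which presents lipids, had a log2 difference of -0.71 ± 0.17 (limma adjusted p = 0.212), and Fcgrt, the neonatal Fc receptor chain that also pairs with B2m, -0.56 ± 0.21 (limma adjusted p = 0.221). Of the 18 receptor genes with a row 10 were tested and 0 called by limma, with 3 lower and 2 higher at an unadjusted p under 0.05, against 13.8% and 6.43% of all tested genes. Klrk1, which encodes NKG2D, had a log2 difference of -1.33 ± 0.40, and Lilrb4a, an inhibitory receptor of myeloid cells, 1.68 ± 0.54 (both limma adjusted p = 0.212). Over all 58 tested genes of these lists, 0 were called by limma and 24 were under an unadjusted p of 0.05, against 20.2% of all tested genes. That count is likewise a description of lists chosen with earlier results known. Leaving out control 2 gave 11 called genes of the 58, all lower in DIC, in a fit that called 12.4% of all tested genes, 8.45% lower in DIC.

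**Figure D4:**
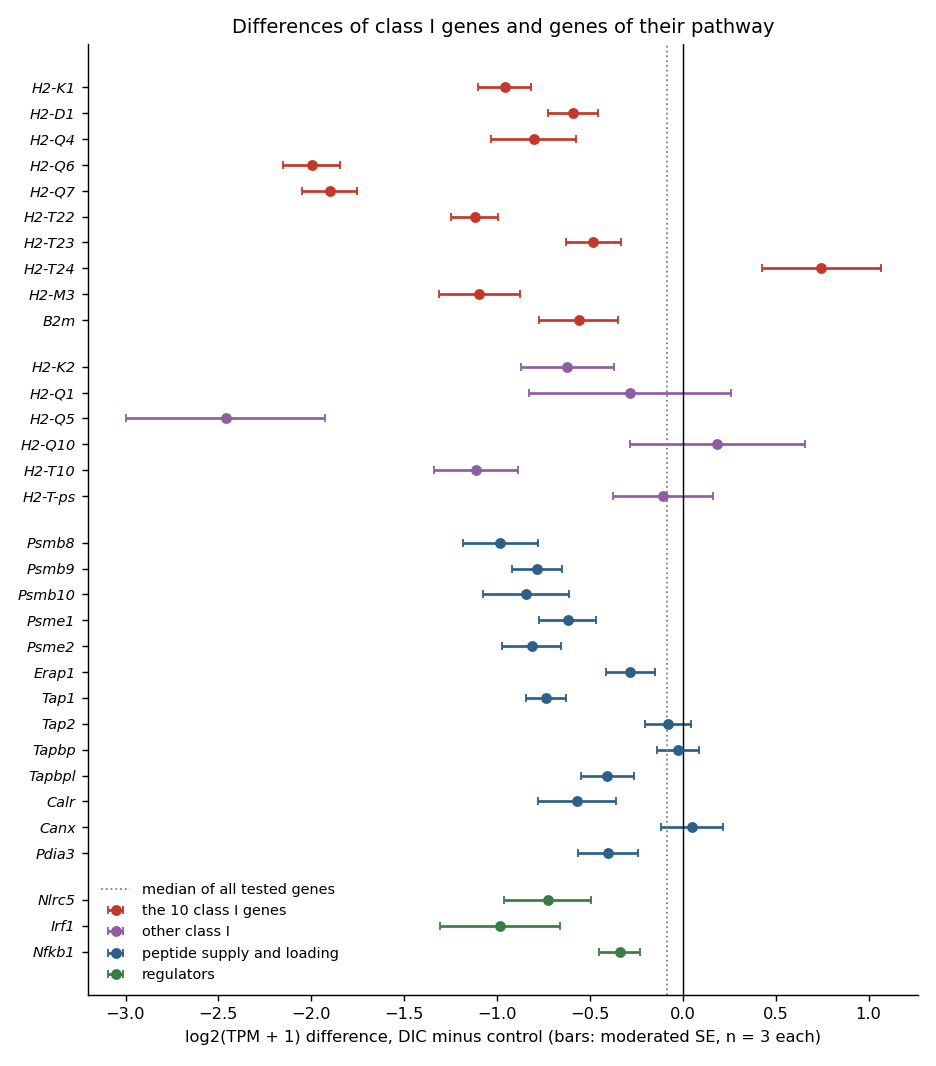
Log2(TPM + 1) difference, DIC minus control (x axis), with the moderated SE as bars (n = 3 each), for the 10 class I genes (red), the 6 other class I genes tested (purple), the 13 genes of peptide supply and loading (blue) and 3 regulators (green); the dotted line is the median of all tested genes. Most class I and loading genes lie left of that median, and H2-T24 lies right of 0.

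Genes with the most similar profile were sought among 8748 other tested genes with a mean of at least 5 TPM. Genes without a symbol, or with a predicted-gene, clone or Rik-type name, were left out. Likeness was measured by the root mean squared difference of centred log2(TPM + 1) values over the 6 libraries. The nearest to the mean of the 10 class I genes were Sccpdh (0.108), Fuom (0.117), Tap1 (0.126), Nudt14 (0.133) and H2-Eb1, an MHC class II chain (0.134), where the median candidate was at 0.436. Tap1 is the peptide transporter subunit described above. Nearest to the mean of H2-Q6 and H2-Q7 were Ifi205 (0.423), Cox6a2 (0.432), Serpina3g (0.434), H2-DMa (0.470) and Ccl5 (0.470), against a median of 0.946. Ifi205 is an interferon-inducible gene, H2-DMa encodes a chain of the class II peptide-loading molecule and Ccl5 a chemokine. Since the profiles were matched over the same 6 libraries, nothing further is read from the levels of these genes.

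The class I values stand beside differences in cell-type markers between the groups. In bulk samples, fewer cells of a type and less RNA per cell cannot be told apart. Counts of markers whose groups did not overlap are to be read against 18.4% of all tested genes lower in DIC and 7.08% higher. All 16 neutrophil genes were tested and 12 were higher in DIC without overlap, with sums of 155300 to 226300 TPM in DIC and 30260 to 126000 TPM in control. Control 2, with a neutrophil share of 12.6%, had 1791 TPM of H2-K1 and 445 TPM of H2-Q6 and H2-Q7 together, against at most 989 and 118 TPM in DIC. Its 27.1 TPM of H2-M3 was nearer to the 20.2 TPM of DIC 2 than to the 42.4 and 39.95 TPM of the other controls. Control 2 was also the lowest control for H2-D1, H2-T22 and B2m, though above every DIC library. With the neutrophil genes removed and TPM rescaled, the summed heavy-chain ratio was 0.640, against 0.555, and the median difference of all tested genes was 0.10, against -0.08.

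Of the mast cell and basophil genes, 6 of 8 tested were lower in DIC without overlap, and the list summed to 449 to 619 TPM in DIC and 1064 to 3484 TPM in control. Of the T and NK cell genes 4 of 7 tested were lower without overlap and all 7 had negative differences, with sums of 1319 to 1791 TPM in DIC and 1770 to 2254 TPM in control, nearly all from Nkg7. Of the B cell genes 3 of 8 tested were lower without overlap, with sums of 494 to 520 TPM in DIC and 507 to 895 TPM in control. The T and NK sums and the B cell sums overlapped between the groups. Of the LSK genes 2 of 9 tested were lower without overlap, a share near the background, with sums of 347 to 404 TPM in DIC and 464 to 536 TPM in control. Macrophage and dendritic genes, 2 of 10 lower and 1 higher without overlap, summed to 171 to 180 TPM in DIC and 169 to 190 TPM in control. Erythroblast genes, 2 of 9 higher without overlap, summed to 191 to 744 TPM in DIC and 188 to 244 TPM in control. No marker was at 0 in every library. The part of these cell types in the class I differences was not tested.

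**Figure D5:**
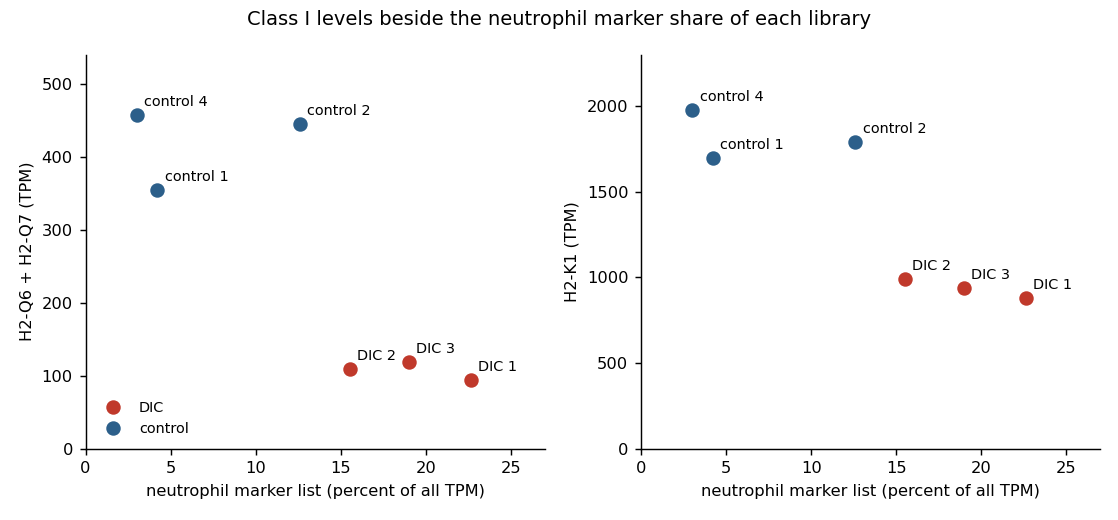
Summed H2-Q6 and H2-Q7 (left panel) and H2-K1 (right panel), in TPM, against the share of the neutrophil gene list in all TPM, in percent, for each DIC (red) and control (blue) library. Control 2, at a neutrophil share of 12.6%, lies with the other controls in these transcripts. Among genes not plotted, it was the lowest control for H2-D1, H2-T22, H2-M3 and B2m. Its H2-M3 level was nearer to DIC 2 than to the other controls.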

How the data were processed

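RNA was sequenced from 3 DIC and 3 control LSK libraries as 150-base read pairs. The deposited table holds TPM values that the authors made, rounded to 2 decimals. Tools listed in the submitters' processing notes are fastp 0.19.5, HISAT2 2.1.0 and StringTie 2.1.2, with the build GRCm39. Which annotation release was used was not given in the sources used here. TPM keeps no depth, so no counting intervals are given. Symbols came from GENCODE M21 by Ensembl ID (52081 of 56750 rows matched).

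The 13496 genes that reached 1 TPM in 3 or more of 6 libraries were tested on log2(TPM + 1). The fit used limma 3.58.1 (R 4.3.3), its mean-variance trend and Benjamini-Hochberg adjustment at 0.05, and the script was tested on simulated data. The class I genes and all lists were chosen with earlier results of these data known. Named genes were the 10 class I genes, every other class I gene tested, the called or 2 lowest-p genes of each pathway list, 10 preset pathway genes, and the 5 nearest profiles. A gene of that rule is not reported here. Motifs and shared windows were found by exact matching. Alternatives were pseudocount, filter, scaling, variance model, a neutrophil covariate, and leaving out each library. Leaving out a library was first run with the filter reapplied; after that result was seen, the fit that keeps the tested genes was made the standard one, so that 1 choice changes at a time, and both are reported.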

Additional observations from a re-analysis of the deposited data

How the results depend on the processing

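The number of genes called by limma over the whole table, 8, was 5 with a pseudocount of 0.1, 0 without the filter (3241 under an unadjusted p of 0.05) and 0 with the neutrophil covariate (315). Leaving out 1 library and keeping the tested genes gave 0 (without DIC 1, with 1239 under an unadjusted p of 0.05, or control 4, with 1458) to 1671 (without control 2). With the filter reapplied, an alternative added after seeing the data that had in fact been run first, the range was 0 to 1762, with 17 without DIC 2, 5 without control 1 and 2 without DIC 3, against 20, 6 and 8 with the tested genes kept. H2-Q6 and H2-Q7 were called without DIC 3 when the tested genes were kept, and not when the filter was reapplied; quantile normalization kept H2-Q6 alone. Pathway genes called, 0, stayed 0 except without control 2, at 11, or 12 with the filter reapplied. The cause of these changes was not tested.

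The summed heavy-chain ratio of 0.555 was 0.640 with the neutrophil list removed, and 0.542 to 0.571 with 1 library left out. The classical share differed by 4.37 percentage points, and by 5.84 with the other class I genes added. The difference in B2m per heavy chain ran from 0.225 to 0.404 around 0.294. Each of the 10 class I genes kept its sign in all 10 settings run for it, H2-T24 included. For the 9 genes whose groups did not overlap, leaving out a library or changing the pseudocount could not reverse the sign. Those settings therefore say nothing about the direction of these genes, which were also chosen by this contrast. The size changed by over 1.5 times for H2-D1 (-0.59) and H2-T23 (-0.48), at -0.35 and -0.29 after quantile normalization and -0.39 and -0.28 with the neutrophil list removed, for B2m (-0.56), at -0.35 with that list removed, and for H2-M3 (-1.09), at -0.43 with the neutrophil covariate.

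No paired analysis was possible because only number 2 is tied by the labels to a single sample in both groups. TPM values carry no depth, so differences of low genes such as H2-Q4 cannot be weighed against counting error.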
